A study of Mus musculus with 2 samples.

Results

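The genes described here are the H3K9 methyltransferase genes Suv39h1, Suv39h2, Ehmt1 and Ehmt2 and the heterochromatin protein 1 (HP1) genes Cbx1, Cbx3 and Cbx5. They were taken by symbol from the gene list of the count matrices, which holds 31253 genes, and all 7 were present. Thymus cells were captured with beads against CD25, the interleukin-2 receptor alpha chain, and their RNA was counted per cell with 10x Genomics 3′ v3.1 chemistry. One library came from WT mice. The other came from SETDBf/fCD4-Cre animals and is called cKO, as in the sample titles. In these animals a floxed SETDB allele is combined with CD4-Cre, a recombinase driven by Cd4 regulatory sequences that acts from the late double-negative (DN) stage of thymocytes on. DN cells of the cKO library may therefore still hold the intact allele, which was not measured. Whether the floxed gene is Setdb1 or Setdb2 is not told by the label, nor are the age and number of the mice. With 1 library per genotype there are no replicates, so no test between genotypes was possible, and every interval given is a 95% interval that covers counting error only.

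Methylation of lysine 9 of histone H3 marks silent chromatin. SUV39H1 and SUV39H2 write the trimethyl mark of pericentromeric heterochromatin. EHMT2 (G9a) and EHMT1 (GLP) work as a heterodimer that writes mono- and dimethyl marks in euchromatin. The HP1 proteins read the mark through a chromodomain and recruit further factors: HP1α is encoded by Cbx5, HP1β by Cbx1 and HP1γ by Cbx3. Newly made histones carry little of the mark, so that it has to be written again after DNA replication, and thymocytes divide in bursts during the DN stage and on the way to the double-positive (DP) stage.

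The promoters of 4 genes with higher levels in cycling than in resting cells are shown. With them stands the promoter of Ehmt1, which was not higher there. Cbx1 was also higher in cycling cells but is not shown. Windows run from 250 bases before to 50 after the start site and come from RefSeq on GRCm38.p6. All 7 genes matched, with 11 windows in all. Capitals mark a match to 1 of 5 motifs, each searched on both strands: TTTCCCGC and TTTGGCGC, forms of the E2F site; TTTGAA and TTCGAA, forms of the cell cycle homology region; and CCAAT, the NF-Y site. The windows lie at chrX:8074711-8075010 (Suv39h1, minus strand), chr2:3474937-3475236 (Suv39h2, minus strand), chr6:51470366-51470665 (Cbx3, plus strand), chr15:103239803-103240102 (Cbx5, minus strand) and chr2:24919560-24919859 (Ehmt1, minus strand).
Suv39h1: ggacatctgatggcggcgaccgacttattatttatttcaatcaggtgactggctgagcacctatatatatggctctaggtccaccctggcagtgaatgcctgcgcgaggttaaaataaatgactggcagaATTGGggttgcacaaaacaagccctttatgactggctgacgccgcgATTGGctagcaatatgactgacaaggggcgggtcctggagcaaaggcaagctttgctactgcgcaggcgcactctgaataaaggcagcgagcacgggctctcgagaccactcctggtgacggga
Suv39h2: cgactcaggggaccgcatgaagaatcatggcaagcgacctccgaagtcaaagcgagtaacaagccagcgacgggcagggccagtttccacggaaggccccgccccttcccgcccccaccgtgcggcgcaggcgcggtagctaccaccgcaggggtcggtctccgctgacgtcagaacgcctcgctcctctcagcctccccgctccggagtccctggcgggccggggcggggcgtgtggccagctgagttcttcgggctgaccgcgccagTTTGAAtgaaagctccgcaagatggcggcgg
Cbx3: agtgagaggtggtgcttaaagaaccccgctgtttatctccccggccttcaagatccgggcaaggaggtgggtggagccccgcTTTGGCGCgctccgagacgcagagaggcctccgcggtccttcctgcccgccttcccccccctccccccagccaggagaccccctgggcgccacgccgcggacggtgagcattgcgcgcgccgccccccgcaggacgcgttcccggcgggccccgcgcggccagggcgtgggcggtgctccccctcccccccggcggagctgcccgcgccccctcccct
Cbx5: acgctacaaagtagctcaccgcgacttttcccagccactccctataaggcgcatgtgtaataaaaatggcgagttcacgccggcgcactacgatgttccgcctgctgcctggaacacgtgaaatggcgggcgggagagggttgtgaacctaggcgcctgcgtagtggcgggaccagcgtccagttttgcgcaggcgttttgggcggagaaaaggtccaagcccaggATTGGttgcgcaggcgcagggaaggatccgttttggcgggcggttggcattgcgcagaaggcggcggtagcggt
Ehmt1: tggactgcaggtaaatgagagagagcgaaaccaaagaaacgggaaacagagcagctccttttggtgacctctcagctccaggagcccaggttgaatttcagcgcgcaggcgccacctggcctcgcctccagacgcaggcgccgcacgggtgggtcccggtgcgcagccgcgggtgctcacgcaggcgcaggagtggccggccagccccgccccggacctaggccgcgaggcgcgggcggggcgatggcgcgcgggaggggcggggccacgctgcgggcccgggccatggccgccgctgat
Suv39h1 held CCAAT on the opposite strand at positions -120 and -74 from the start site, and Cbx5 held it at -24. CCAAT is common, with a match in 37.4% of 32817 promoter windows. Suv39h2 held TTTGAA at position 20, a motif found in 17.9% of windows. Cbx3 held TTTGGCGC at -168, which 0.515% of windows contain. TTTCCCGC (1.07% of windows) and TTCGAA (1.56%) matched none of the members' windows. No match was found for Cbx1, Ehmt1 or Ehmt2, which says only that these letters are not in the windows. Further windows of Suv39h1, Cbx3 and Cbx5, which are not shown, held no match either. The 4 genes shown for their higher levels are thus those with a match, while Cbx1, also higher, had none and was left out. That all 4 have a match follows from this choice. The share of all windows with any of the 5 motifs was not counted. A link between matches and levels was not tested.

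The WT file held 7852 barcodes with 89370968 UMIs (unique molecular identifiers, 1 per captured RNA molecule) and the cKO file 8461 barcodes with 76668166 UMIs. After filters 6989 WT cells (median 7700 UMIs) and 7372 cKO cells (median 4653 UMIs) were kept, of which 13 in each shared a barcode with the other library. Cells were gated on marker UMIs into stages and, by lists of S-phase and G2/M genes that hold no member, into resting, S and G2/M cells. The 12 classes with at least 50 cells in each library held 59.7% of the kept cells of either one. Markers that the gates did not use followed the names in part. Levels are UMIs of a gene per 1000000 UMIs of a class (CPM). Lyl1, a progenitor gene, stood at 28.8 CPM in early DN-like resting cells and 0.19 in DN3-like resting cells of the WT library, and Hhex at 30.7 and 0.56. Il2ra and Notch1 were instead higher in DN3-like (626 and 638) than in early DN-like resting cells (424 and 365), and Cd44 was higher in agonist-like (83.5) than in early DN-like resting cells (7.97). Ctla4, a Treg gene, was highest in Treg-like cells (333 and 362 in WT and cKO), whereas Il2ra (297 and 340) was higher in DN3-like resting cells and Ikzf2 (1423 and 1097) in agonist-like cells (1606 and 1788). One gate did not hold to its name: cells gated on the egress genes Ccr7, S1pr1 and Klf2 carried the Treg and agonist gene Ikzf2 at 1021 and 830 CPM and, in WT, Cd74 at 1314, so they are called egress-gene cells. Cd8-positive S and G2/M cells had less Cd4 (17.2 to 98.7 CPM) than the DP-like resting cells they are set against (530 and 568). In the cKO library 63.8% of Cd8-positive S cells had under 5000 UMIs, against 43.3% in WT, and these small cells gave 11.6% and 5.77% of the UMIs of that class. Markers of other cells varied. Krt5, Krt8, Hbb-bs and Hba-a1 had at most 9 UMIs in a library, Lyz2, a myeloid gene, was at 10.3 and 25.9 CPM and Tyrobp, an innate cell gene, at 19.6 and 28.6 CPM. Epcam was at 43.6 and 50.6 CPM and Cst3, a gene high in myeloid cells, at 188 and 200 CPM. Xist had 3 and 11 UMIs and the Y-linked Ddx3y was at 73.1 and 81.7 CPM in both libraries, which bears on Suv39h1 because that gene is X-linked.

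Setdb1 RNA, which stands first in a check of the labels, was within counting error between the libraries in 11 of 12 classes, the exception being Cd8-positive S cells (35.5 and 27.7 CPM in WT and cKO, 0.78 times, 0.62 to 0.99). Its level was 32.2 CPM (27.6 to 37.4) in WT and 34.8 (29.0 to 41.5) in cKO DN3-like resting cells, 27.9 and 26.1 in DP-like resting cells, and 21.7 (14.6 to 31.0) and 19.2 (12.5 to 28.1) in Treg-like cells. Setdb2 was at 8.51 and 10.6 CPM in DP-like resting cells and at 6.51 and 5.90 in Treg-like cells. Reads from the 3′ end do not show whether a floxed exon was lost, so neither gene checks the genotype.

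Levels are compared for 1 gene across classes, not between genes. The members fell into 2 kinds of profile. Suv39h1, Suv39h2, Cbx1, Cbx3 and Cbx5 had their highest level in an S or G2/M class in both libraries, and the plot of levels by class shows it. The share of all genes with their highest level in such a class was not counted. Ehmt1 was highest in DP-like resting cells in both libraries, and Ehmt2 in DN3-like G2/M cells in WT and early DN-like resting cells in cKO. Treg-like resting cells held the lowest level of Suv39h2, Ehmt2, Cbx1, Cbx3 and Cbx5 in both libraries. How many of all genes were lowest in that class was not counted. The median gene was lower there than in DP-like resting cells as well, by -0.37 on the log2 scale in both libraries. Between the lowest and the highest class the level of Cbx5 differed 9.26-fold in WT and 13.4-fold in cKO and that of Suv39h2 13.1- and 8.2-fold, the latter against 2 and 3 UMIs in its lowest class. The range was 5.62- and 6.47-fold for Suv39h1, 2.84- and 2.69-fold for Cbx1, 2.66- and 2.72-fold for Cbx3, 1.60- and 1.66-fold for Ehmt2, and 1.45- and 1.52-fold for Ehmt1.

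**Figure D1:**
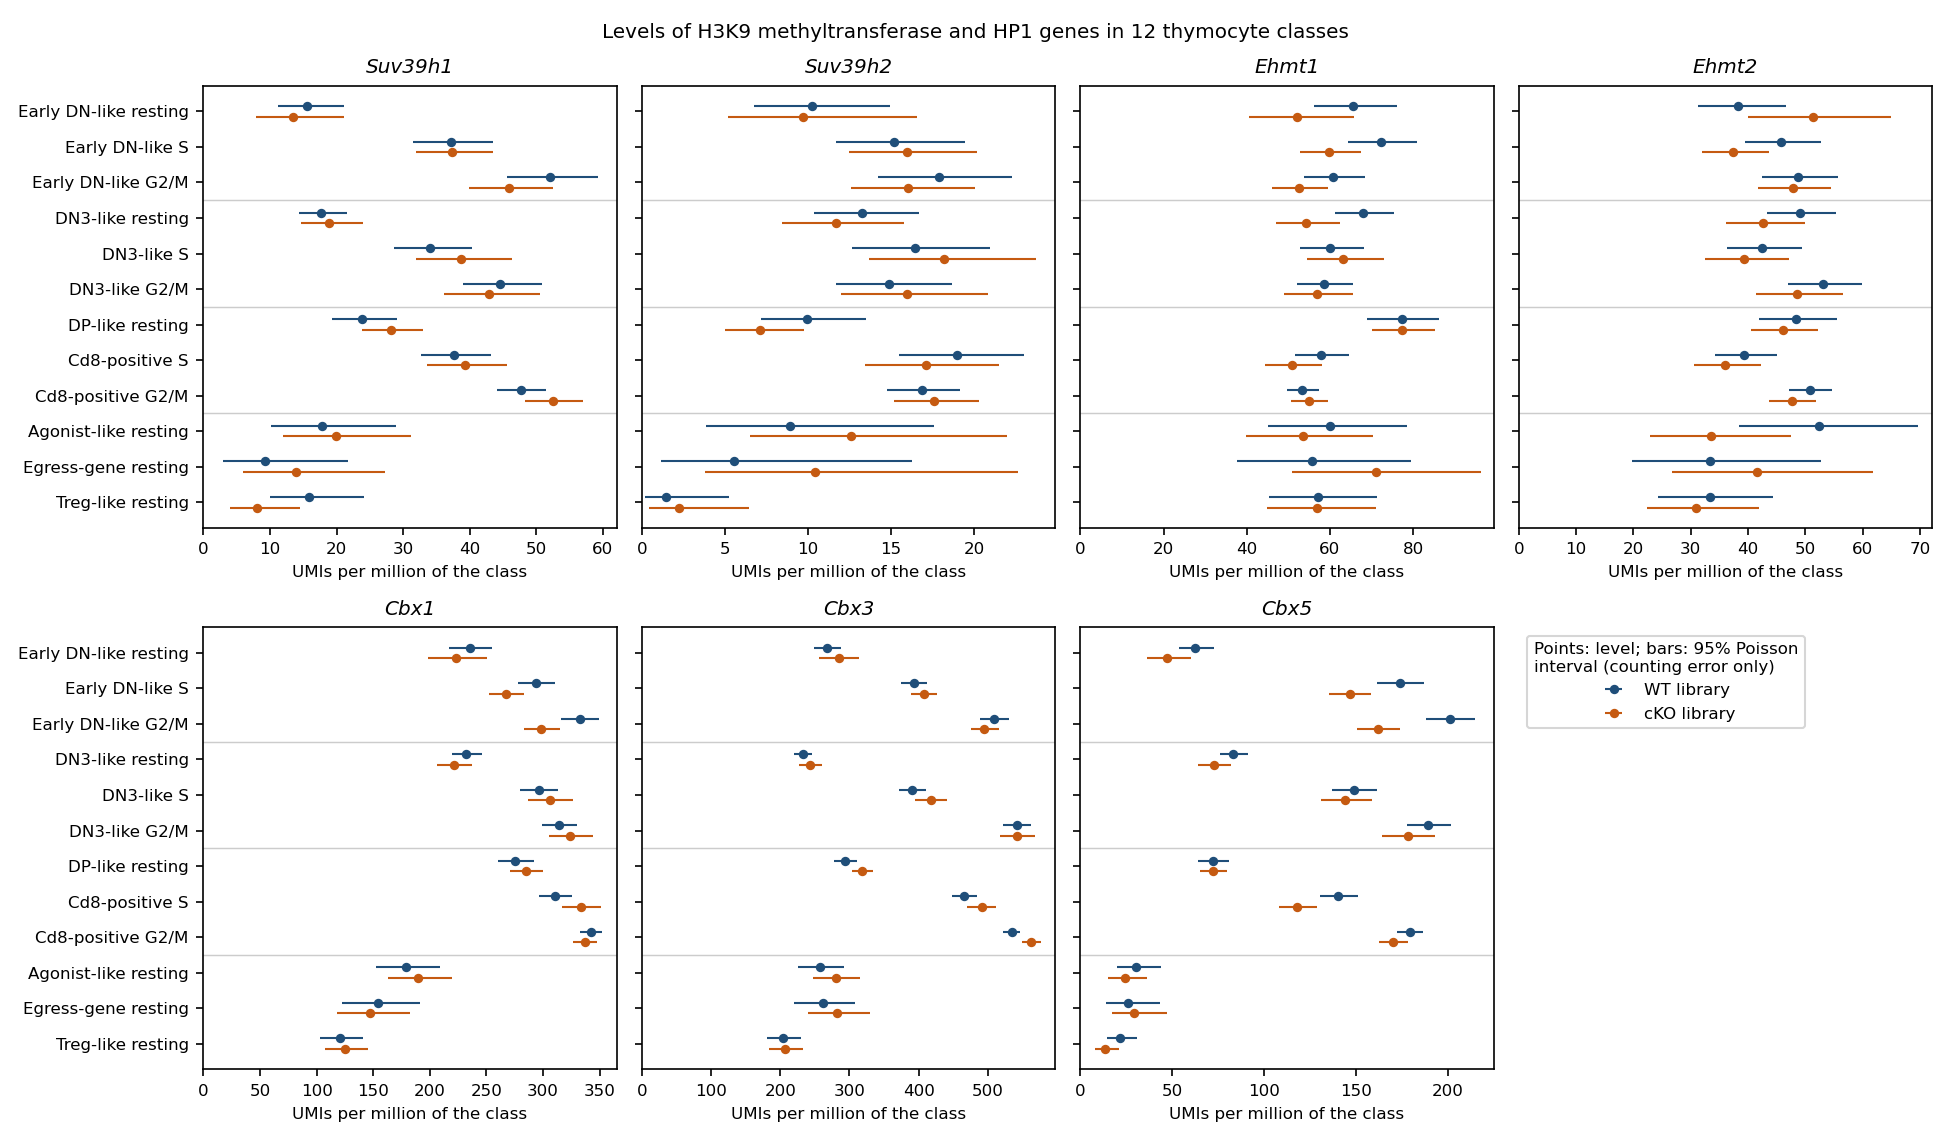
CPM of each class (horizontal axes, scaled per gene) for the 7 genes in 12 thymocyte classes, WT in blue and cKO in orange, with 95% Poisson intervals that cover counting error only. For Suv39h1, Suv39h2, Cbx3 and Cbx5 every S and G2/M class lies above every resting class in both libraries, whereas Ehmt1 is highest in DP-like resting cells.

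Suv39h1 (ENSMUSG00000039231, chrX:8061171-8074760 on the minus strand in GENCODE vM21 on GRCm38; the build behind the counts is not stated) was higher in each cycling class than in any resting class. In WT early DN-like cells its level was 15.6 CPM (11.2 to 21.1) at rest, 37.1 in S and 52.1 in G2/M, and in cKO cells it was 13.4 (7.94 to 21.2), 37.4 and 45.9. DN3-like cells held 17.7, 34.1 and 44.6 in WT and 18.9, 38.7 and 42.9 in cKO. Both DN stages thus showed the same order in both libraries, with rest lowest and G2/M highest. DP-like resting cells were at 23.8 and 28.2, Cd8-positive S cells at 37.7 and 39.3 and Cd8-positive G2/M cells at 47.7 and 52.5. The remaining resting classes were low: agonist-like cells at 17.8 and 19.9, egress-gene cells at 9.28 and 13.9, and Treg-like cells at 15.9 (9.97 to 24.1) and 8.12 (4.05 to 14.5). G2/M cells held 3.35 times (2.40 to 4.79) the resting level in WT early DN-like cells and 3.43 times (2.12 to 5.89) in cKO. The smallest ratio of a cycling to a resting class was 1.395 (1.11 to 1.75), in Cd8-positive S cells of the cKO library. Intervals of neighbouring classes in the order overlapped in all 11 pairs of either library, also between the lowest cycling and the highest resting class.

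Suv39h2 (ENSMUSG00000026646, chr2:3455815-3475031, minus strand) encodes the second enzyme of this pair and had few UMIs, 1223 in WT and 1029 in cKO over all kept cells. The S and G2/M classes lay between 14.9 and 18.9 CPM in WT and between 15.96 and 18.2 in cKO. All resting classes were lower, from 1.45 to 13.2 in WT and from 2.21 to 12.6 in cKO. Its interval for cycling over resting excluded 1 in 6 of 12 comparisons, 4 of them in Cd8-positive cells, where the ratio ran from 1.69 (1.21 to 2.42) in WT G2/M cells to 2.48 (1.74 to 3.61) in cKO G2/M cells. In Treg-like resting cells 2 UMIs were counted in WT and 3 in cKO, which gives 1.45 CPM (0.175 to 5.23) and 2.21 (0.457 to 6.47). Against DP-like resting cells (9.96 and 7.09 CPM) the Treg-like level was 0.145 times (0.017 to 0.559) in WT and 0.312 times (0.062 to 0.984) in cKO. As for Suv39h1, all 11 pairs of neighbouring classes had overlapping intervals in either library.

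Ehmt1 and Ehmt2, the writers of the mono- and dimethyl marks, did not follow the cycle in this way. Ehmt1 (ENSMUSG00000036893, chr2:24789928-24919614, minus strand) was at 77.3 CPM (69.0 to 86.3) in WT and 77.4 (70.1 to 85.2) in cKO DP-like resting cells. Cd8-positive S cells held 57.8 and 50.8 and Cd8-positive G2/M cells 53.4 and 55.1, ratios to rest of 0.75, 0.66, 0.69 and 0.71 with intervals below 1. The median gene moved the same way in these comparisons, and relative to it Ehmt1 differed by -0.04 to -0.19 on the log2 scale. In early DN-like and DN3-like cells the ratio of cycling to resting cells ran from 0.86 to 1.16, and all 8 intervals included 1. Ehmt2 (ENSMUSG00000013787, chr17:34898469-34914052, plus strand) ranged from 33.3 to 53.1 CPM in WT and from 31.0 to 51.4 in cKO, with Treg-like cells lowest in both. Its ratio of cycling to resting cells ran from 0.73 to 1.27. It was below 1 with its interval in early DN-like S cells of the cKO library (0.73, 0.55 to 0.98) and in Cd8-positive S cells of both (0.81 and 0.78). In the latter the sign turned once the median gene was taken off, from -0.27 to 0.09 in WT and from -0.32 to 0.06 in cKO on the log2 scale. For neither gene did a pair of neighbouring classes have separate intervals.

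Cbx5, which encodes HP1α (ENSMUSG00000009575, chr15:103191544-103239816, minus strand), was higher in each cycling class than in any resting class. Early DN-like cells of the WT library held 62.6 CPM (53.4 to 72.9) at rest, 174 in S and 201 (188 to 214) in G2/M. In cKO early DN-like cells the values were 46.9 (36.0 to 60.0), 147 and 162 (151 to 174). Cycling cells of this stage thus had 2.78 to 3.45 times the resting level. DN3-like cells held 83.3, 149 and 189 in WT and 72.6, 144 and 178 in cKO. DP-like resting cells were at 72.2 and 72.4, Cd8-positive S cells at 140 and 118 and Cd8-positive G2/M cells at 179 and 170. The lowest levels were those of agonist-like cells at 30.1 (19.8 to 43.7) and 24.1 (15.3 to 36.2), of egress-gene cells at 26.0 and 29.5, and of Treg-like cells at 21.7 (14.6 to 31.0) and 13.3 (7.87 to 21.0). In the order of classes the intervals parted between the lowest cycling class, Cd8-positive S, and the highest resting class, DN3-like, in both libraries.

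The share of Cbx5 among the UMIs of the 3 HP1 genes differed between classes as well. It was 11.1% (Clopper-Pearson interval 9.52 to 12.8) in WT early DN-like resting cells, 20.2% (18.9 to 21.6) in S and 19.3% (18.2 to 20.4) in G2/M. In cKO cells of this stage it was 8.46% (6.56 to 10.7), 17.8% and 16.9%. DP-like resting cells held 11.3% and 10.7%, and Cd8-positive G2/M cells 17.0% and 15.9%. In Treg-like cells it was 6.26% (4.27 to 8.82) in WT and 3.84% (2.29 to 6.0) in cKO. Every S and G2/M class lay above the DP-like resting class, though the interval of Cd8-positive S cells in cKO (11.5 to 13.6) overlapped that of DP-like cells (9.72 to 11.8). The share in DN3-like resting cells (15.2% and 13.5%) overlapped that of Cd8-positive S cells (15.3% and 12.5%). A share of UMIs depends on how well each gene is captured, so it is read here across classes only.

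**Figure D2:**
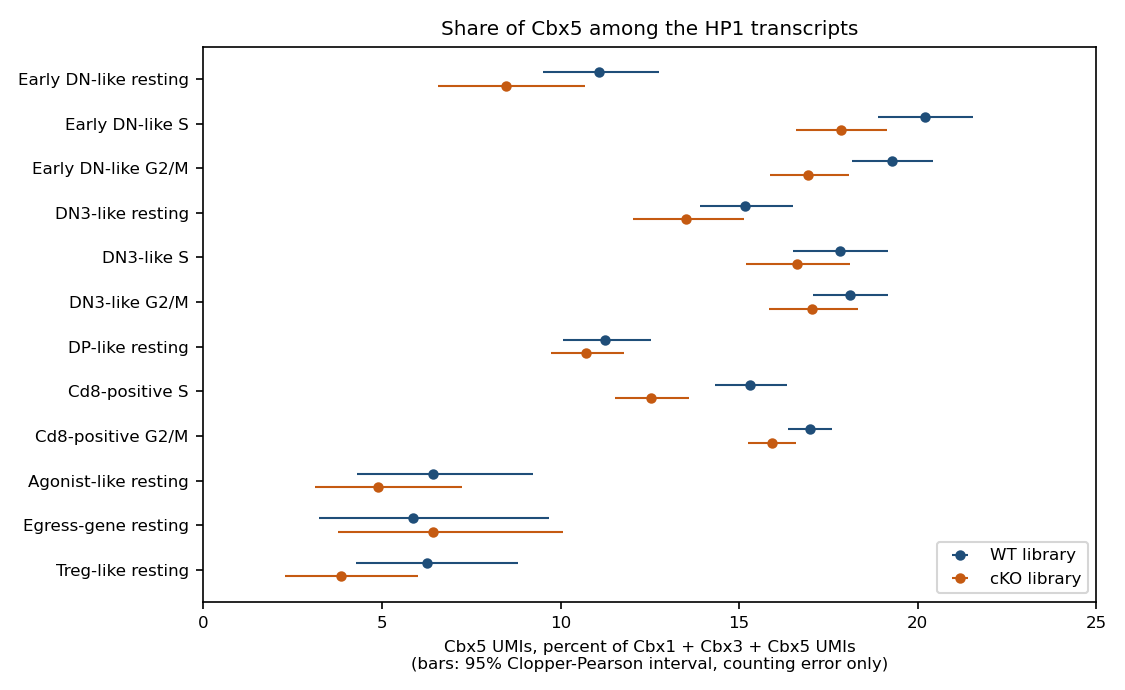
Cbx5 UMIs as a percent of Cbx1, Cbx3 and Cbx5 UMIs together (horizontal axis) in 12 classes, WT in blue and cKO in orange, with 95% Clopper-Pearson intervals. The share is highest in early DN-like S cells (20.2% and 17.8%) and lies between 3.84% and 6.44% in the agonist-like, egress-gene and Treg-like classes.

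Cbx3, the HP1γ gene (ENSMUSG00000029836, chr6:51470360-51483704, plus strand), had a clear step from rest to S and from S to G2/M. In DN3-like cells it was at 233 CPM (221 to 247) at rest, 390 in S and 542 (522 to 563) in G2/M in WT, and at 244, 418 and 543 in cKO. G2/M cells of this stage held 2.33 times (2.17 to 2.49) and 2.23 times (2.05 to 2.42) the resting level. Early DN-like cells held 268, 393 and 509 in WT and 284, 408 and 495 in cKO. DP-like resting cells were at 294 and 318, Cd8-positive S cells at 466 and 491, and Cd8-positive G2/M cells at 534 (522 to 547) and 563 (549 to 577). Agonist-like (257 and 280), egress-gene (262 and 282) and Treg-like cells (204 and 207) completed the resting classes, so that the lowest cycling class was above the highest resting class in both libraries with separate intervals. GENCODE lists 8 processed pseudogenes of Cbx3, and 0 of them are among the genes of the files, so reads shared with them make the absolute level of Cbx3 uncertain.

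Cbx1, the HP1β gene (ENSMUSG00000018666, chr11:96789127-96808640, plus strand), had the smallest step of the HP1 genes. Its level in early DN-like cells was 235 CPM (217 to 255) at rest, 294 in S and 332 in G2/M in WT and 223, 267 and 298 in cKO. DN3-like cells held 232, 296 and 314 in WT and 221, 306 and 324 in cKO. DP-like resting cells (276 and 285), Cd8-positive S cells (311 and 333) and Cd8-positive G2/M cells (343 and 337) were closer together. Its levels in agonist-like (179 and 190), egress-gene (154 and 147) and Treg-like cells (121 and 125) were the lowest. In the cKO library the DP-like resting level was above that of early DN-like S cells, so cycling and resting classes were not fully separate for Cbx1.

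The comparison of cycling with resting cells of the same stage and library took 2 cycling states in 3 stages and 2 libraries, 12 comparisons per gene. Among Cd8-positive cells Rag1 or Rag2 UMIs were required of the resting, DP-like cells only. Cycling and resting cells were thus gated differently there and may differ in stage. A difference was counted when log2 of the levels, each plus 5 CPM, was at least 2-fold. By that count 16 of 84 member comparisons were higher and 0 lower: Cbx5 in 8, Suv39h1 in 6 and Cbx3 in 2. In early DN-like cells 2 of 7 members, Suv39h1 and Cbx5, were at least 2-fold higher in S, against 3.37% of all genes in WT and 3.54% in cKO. The same 2 were higher in G2/M, against 5.89% of genes in either library. In DN3-like cells none of the members passed in S (4.42% and 5.01% of genes did), and Suv39h1, Cbx3 and Cbx5 passed in G2/M (7.24% and 7.8%). In Cd8-positive cells none passed in S (8.71% and 8.41%), and Cbx5 alone passed in G2/M (9.25% and 9.11%). No member was 2-fold lower. The share of all genes that were lower, WT before cKO, was 0.899% and 1.51% in early DN-like S cells, 2.96% and 3.43% in early DN-like G2/M cells, 3.17% and 4.06% in DN3-like S cells, 10.3% and 9.95% in DN3-like G2/M cells, 20% and 18.4% in Cd8-positive S cells and 21.1% and 21.4% in Cd8-positive G2/M cells.

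The median of the 7 members lay above 0 in each of the 12 comparisons, from 0.34 to 0.79 on the log2 scale, and the median of all genes below 0, from -0.06 to -0.37. That shift was over 0.1 in DN3-like cells (-0.14 and -0.13 in S, -0.19 and -0.15 in G2/M) and in Cd8-positive cells (-0.35 and -0.37, -0.33 and -0.35). Relative to the median gene, 28 of the 84 comparisons were at least 2-fold higher: Cbx5 in 11, Suv39h1 in 8, Cbx3 in 6 and Suv39h2 in 3. The share of all genes past 2-fold on this scale was not counted, so the 28 stand without a background. Without the median gene taken off, intervals of the ratio were also counted. They lay above 1 in 12 of 12 comparisons for Suv39h1 (1.395 to 3.43) and Cbx1 (1.13 to 1.47). The same held for Cbx3 (1.43 to 2.33) and Cbx5 (1.63 to 3.45), against 0 of 12 for Ehmt1 and Ehmt2. Such intervals narrow as UMIs rise, and the share of all genes with an interval above 1 was not counted. The depth of the cells moved with this comparison: the median WT cell had 8112 UMIs at rest and 29427 in G2/M in the DN3-like stage. The gap was wider for Cd8-positive cells, with 2534 in DP-like resting and 34700 in G2/M cells of WT. In cKO these had 2290.5 at rest, 2350.5 in S and 32108.5 in G2/M. The part of depth in the result was not tested.

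**Figure D3:**
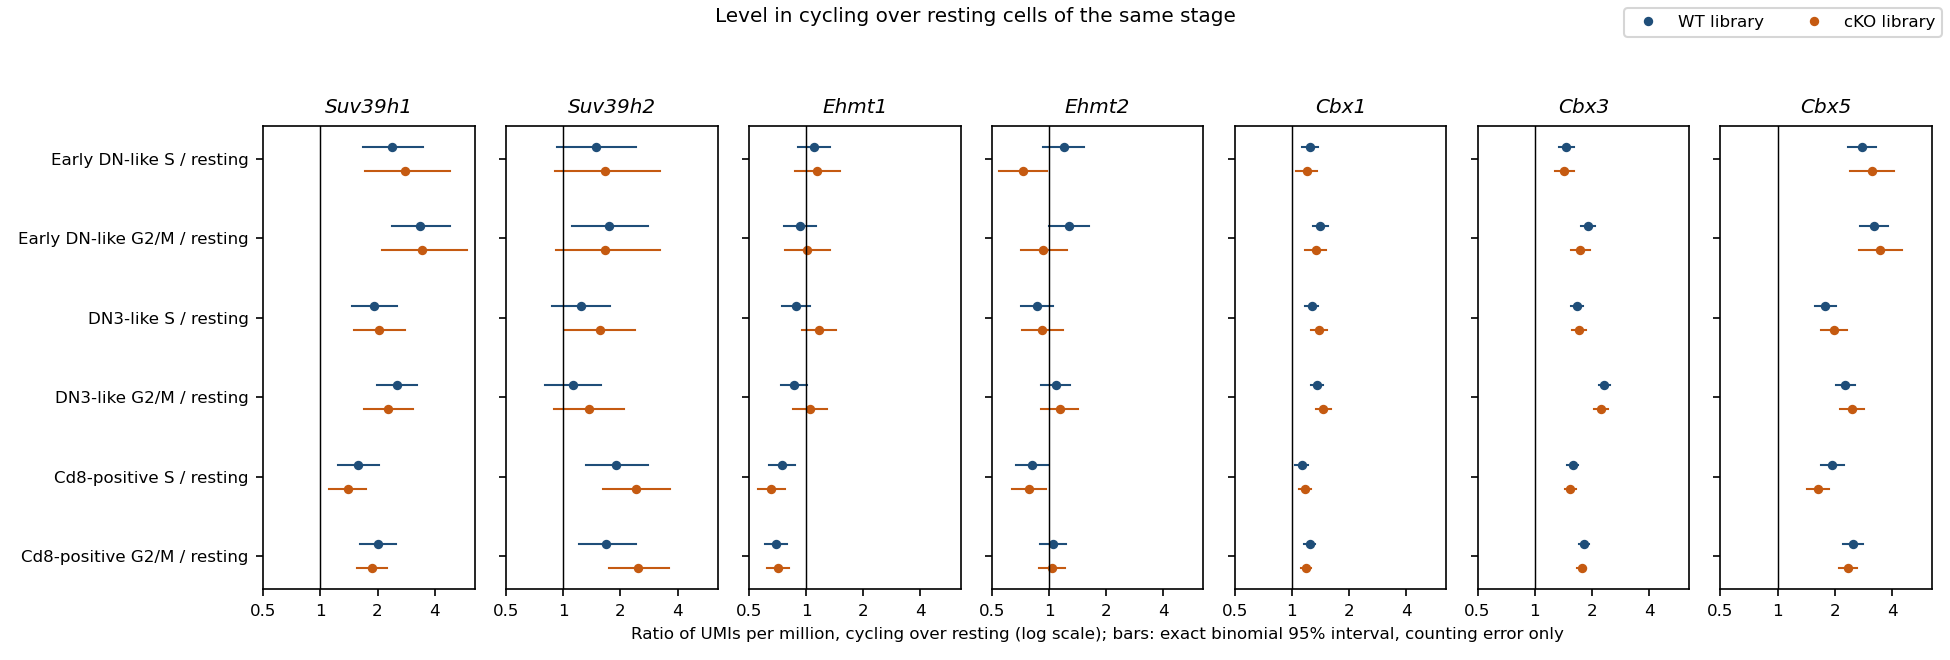
Ratio of CPM in S or G2/M cells to CPM in resting cells of the same stage (horizontal axes, log scale) for the 7 genes, WT in blue and cKO in orange, with exact binomial 95% intervals. Cd8-positive S and G2/M cells are set against DP-like resting cells. Cbx5 and Suv39h1 lie above 1 in every comparison and farthest in early DN-like cells, whereas Ehmt1 and Ehmt2 lie around or below 1.

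For Suv39h1 the ratios in Cd8-positive cells, 1.58 and 1.395 in S and 2.005 and 1.86 in G2/M, were below those of the DN-like stages in the same phase and library. When Cd4 was required in the resting and the cycling cells alike, a choice made after the data were seen, G2/M cells were higher by 0.95 and 0.89 on the log2 scale for Suv39h1 (0.87 and 0.79 without it) and by 1.31 and 1.28 for Cbx5 (1.26 and 1.18 without it). Another setting required at least 10 UMIs of the cycle genes in S and G2/M cells. How many small cells this limit took out was not counted. With the limit, the S-phase difference in Cd8-positive cKO cells was 0.44 for Suv39h1 (0.42 without it) and 0.73 for Cbx5 (0.67 without it).

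G2/M cells were also set against S cells of the same stage. Cbx3 was higher in G2/M in all 6 comparisons with the interval above 1, by 1.15 to 1.39 times, with the highest ratio in WT DN3-like cells. Cbx5 was higher in 6 of 6, with 5 intervals above 1 (1.10 to 1.44 times). Suv39h1 was higher in 6 of 6 with 4 such intervals (1.11 to 1.40 times), and so was Ehmt2 (1.07 to 1.32 times). For Suv39h2 no interval excluded 1 and the ratio was on either side of it (0.88 to 1.18). Cbx1 was higher in 6 of 6 with 3 intervals above 1 (1.01 to 1.13 times). Ehmt1 was higher in 1 of 6 and had 1 interval below 1, in WT early DN-like cells (0.84, 0.71 to 0.995). How many of all genes had such intervals was not counted, and genes with more UMIs have narrower ones. No member reached 2-fold in either direction. Of all genes 2.26% (WT) and 2.19% (cKO) were that much higher in early DN-like cells, 1.88% and 2.09% in DN3-like and 1.38% and 1.49% in Cd8-positive cells, and 0.0996% and 0.109%, 0.624% and 0.364%, and 0.316% and 0.687% were lower.

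Among resting cells, each stage was compared with DP-like cells of the same library. In 11 of 70 comparisons a member was at least 2-fold lower and in 0 at least 2-fold higher. Cbx5 accounted for 6 of the 11, in agonist-like, egress-gene and Treg-like cells of both libraries, with ratios of 0.42 (0.27 to 0.62) and 0.33 (0.21 to 0.51), 0.36 and 0.41, and 0.30 (0.20 to 0.44) and 0.18 (0.11 to 0.29). Cbx1 was lower in Treg-like cells of both libraries (0.44, 0.37 to 0.52 in each), Suv39h1 in WT egress-gene and cKO Treg-like cells, and Suv39h2 in WT Treg-like cells. The background was high here: 15.4% and 15.3% of all genes were at least 2-fold lower in Treg-like cells, 16.0% and 15.7% in agonist-like and 15.7% and 14.8% in egress-gene cells. In agonist-like and egress-gene cells Cst3 was at 753 and 1546 CPM in WT and 129 and 425 in cKO, against 184 and 291 in DP-like cells, and its part in the result was not tested. With the median gene taken off (-0.37 in Treg-like cells of both libraries) 3 of the 11 passed, all of them Cbx5. These were in Treg-like cells of both libraries and agonist-like cells of cKO. The share of all genes on that scale was not counted. Early DN-like resting cells held none of the lower members, against 8.86% and 12.2% of genes, nor did DN3-like resting cells, against 8.22% and 9.39%. Upward, 7.52% and 7.28% of genes passed in early DN-like, 5.76% and 5.72% in DN3-like, 7.06% and 6.59% in Treg-like, 7.62% and 7.34% in agonist-like and 5.65% and 5.78% in egress-gene cells. Beside DP-like cells, DN3-like resting cells had less Cbx3, at 0.79 times (0.73 to 0.86) and 0.77 times (0.70 to 0.83), and about as much Cbx5, at 1.15 times (0.99 to 1.34) and 1.004 times (0.855 to 1.18).

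The comparison of cKO with WT asked whether the other writers and the readers of the mark had different RNA levels where SETDB was targeted. With a threshold of 1.5-fold, 0 of the 84 gene and class pairs were higher in cKO and 1 was lower. In 3 of the 84 the gene had under 20 UMIs in both libraries together. The lower one was Suv39h1 in Treg-like cells, where WT held 22 UMIs and cKO held 11. Its ratio of 0.51 has an interval (0.22 to 1.10) that includes 1, and 9 of 17 alternatives moved this count of 1 to between 0 and 4. In that class 4.84% of all genes were lower and 4.13% higher by this threshold. In the other resting classes the share of genes lower and higher in cKO was 4.13% and 2.13% in early DN-like, 0.954% and 0.616% in DN3-like, 0.664% and 0.8% in DP-like, 5.44% and 5.27% in agonist-like and 7.16% and 7.67% in egress-gene cells. In cycling classes it was 0.973% and 0.516% in early DN-like S, 0.892% and 0.511% in early DN-like G2/M, 1.13% and 0.69% in DN3-like S, 0.755% and 0.881% in DN3-like G2/M, 0.599% and 0.913% in Cd8-positive S and 0.245% and 0.169% in Cd8-positive G2/M cells. Cbx5 in the same Treg-like cells was at 0.61 times (0.32 to 1.13). In this class Cd74 stood at 63.7 CPM in the WT library and 402 CPM in the cKO library, and its part in these values was not tested.

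Of the 84 intervals 75 included 1, and the same count was not made over all genes. The 2 above 1 were those of Cbx3 in DP-like resting cells (1.08, 1.01 to 1.17) and Cd8-positive G2/M cells (1.05, 1.02 to 1.09). The 7 below 1 were those of Cbx5 in early DN-like S cells (0.84, 0.76 to 0.94), early DN-like G2/M cells (0.81, 0.73 to 0.89) and Cd8-positive S cells (0.84, 0.75 to 0.94), of Cbx1 in early DN-like S (0.91) and G2/M cells (0.90), and of Ehmt1 in early DN-like S (0.83) and DN3-like resting cells (0.80). Of these 7, 6 were in DN-like classes. The median gene was at -0.05 on the log2 scale in the early DN-like S and G2/M classes. Genotype, mice, bead enrichment and capture cannot be told apart with 1 library each. For Cbx3, Cbx5 and Cbx1 the profile over the 12 classes was nearly the same in both libraries (Pearson r of 0.996, 0.987 and 0.983 on the log2 scale). It was 0.924 for Suv39h1, 0.911 for Suv39h2, and 0.355 and 0.353 for Ehmt1 and Ehmt2, whose levels varied little between classes.

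**Figure D4:**
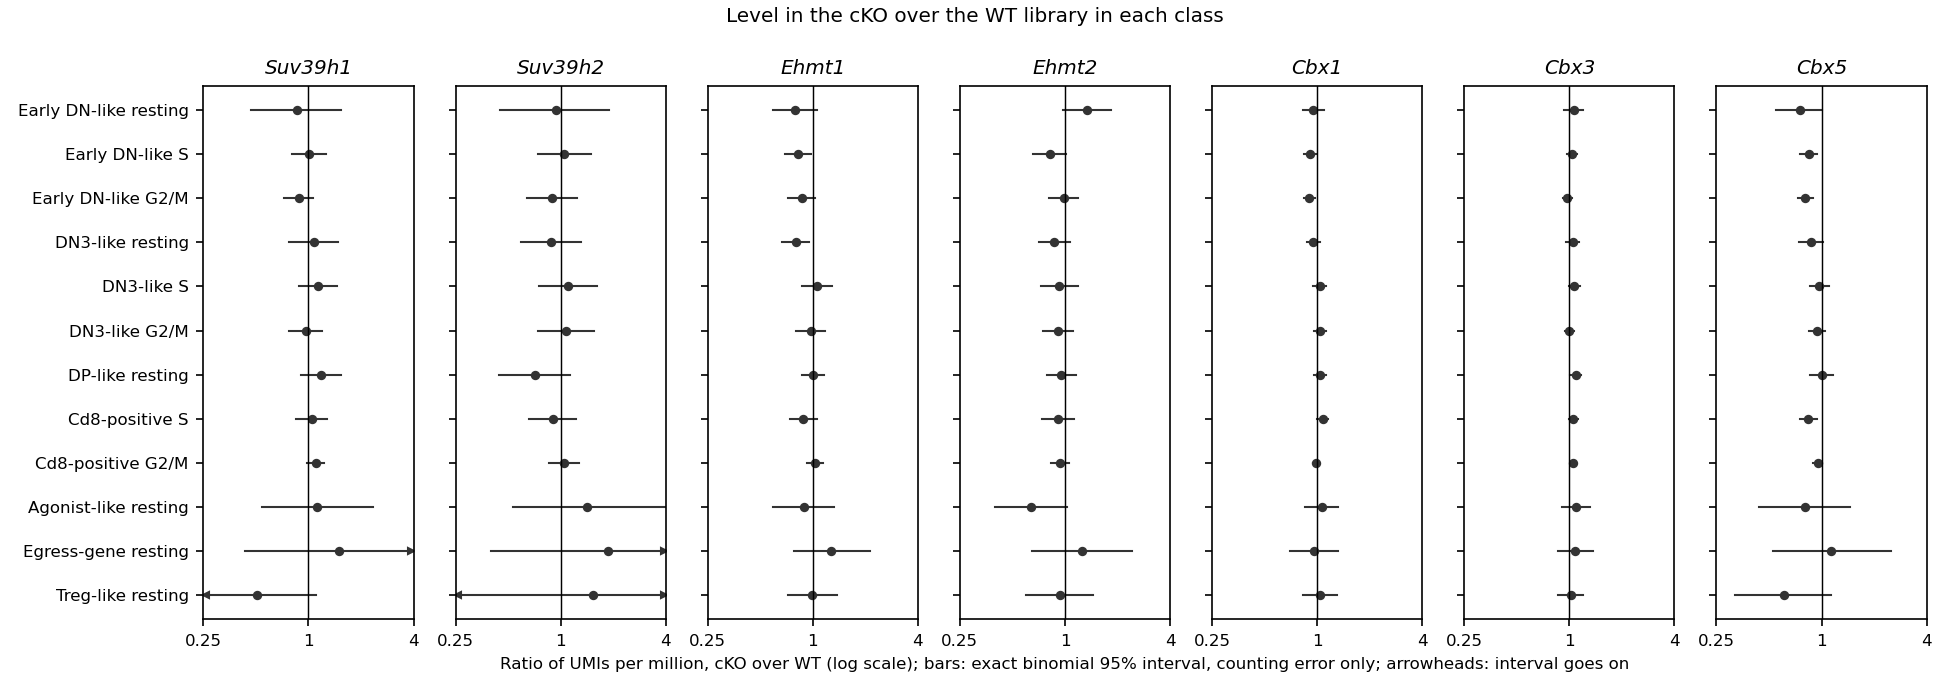
Ratio of CPM in the cKO library to that in the WT library in each of 12 classes (horizontal axes, log scale) for the 7 genes, with exact binomial 95% intervals and arrowheads where an interval runs past the axis. Most intervals include 1 (75 of 84), and those of Suv39h1 and Suv39h2 are widest in the agonist-like, egress-gene and Treg-like classes.

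Related genes were described from 4 lists. None of 16 other H3K9 writers and partners, among them Setdb1, Setdb2 and Trim28, was 2-fold higher or lower in G2/M than in resting cells in all 6 comparisons (3 stages in 2 libraries). In Cd8-positive S and G2/M cells 1 of the 15 genes of the list with enough UMIs was higher and 6 were lower in both libraries. The higher one was Trim28, which brings SETDB1 to zinc finger proteins, at 2.57 times (2.33 to 2.84) the resting level in WT G2/M cells and 2.55 times (2.33 to 2.80) in cKO. The lower ones were Prdm2, Atf7ip, Resf1, Zfp644, Cdyl2 and Tasor. Of all genes 20% (WT) and 18.4% (cKO) were lower in Cd8-positive S cells and 21.1% and 21.4% in G2/M cells. The shares of all genes that were higher were 8.71% and 8.41% in S and 9.25% and 9.11% in G2/M. Of 18 factors linked to HP1 and heterochromatin, 6 were higher in all 6 comparisons: Chaf1a and Chaf1b, subunits of the CAF-1 histone chaperone that binds HP1, Dnmt1, the maintenance DNA methyltransferase, Hells, a chromatin remodeller, Incenp, a chromosomal passenger protein, and Lmnb1, a lamin of the nuclear envelope. Of 9151 genes tested in all 6 comparisons 4.2% were higher in each, and 0.885% were lower in each. In WT DN3-like cells Dnmt1 was at 64.8 CPM at rest and 299 in G2/M, 4.61 times higher (4.10 to 5.19), and Chaf1b at 21.8 and 70.0, 3.21 times higher (2.60 to 3.99). Lmnb1 was at 50.3 and 283 CPM and Incenp at 17.0 and 214 in the same cells. The list's median ran from -0.17 to 0.57 on the log2 scale over the 6 comparisons, against -0.08 to -0.35 for all genes.

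Of 11 H3K9 demethylases 10 had enough UMIs in each comparison. Kdm7a, a demethylase of the PHF8 family, was lower in G2/M in all 6, at 26.8 CPM at rest and 2.58 in G2/M in WT DN3-like cells (0.096 times, 0.050 to 0.170). Their median ran from -0.47 to -1.41 on the log2 scale, and 8 or 9 of the 10 were at least 2-fold lower in Cd8-positive G2/M cells, where 21.1% and 21.4% of all genes were. Among 11 Polycomb and other chromobox genes, Ezh2 was higher in all 6 and Ezh1, its paralog, lower. Ezh2, an H3K27 methyltransferase, stood at 127 and 418 CPM in resting and G2/M DN3-like cells of the WT library, and Ezh1 at 23.3 and 5.95. In early DN-like cells Ezh1 passed by little, at -1.02 and -1.004 on the log2 scale, and 9 of 17 alternatives left no lower gene in this list.

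Between the libraries, genes of these lists past 1.5-fold in at least 2 classes were Atf7ip and Resf1, partners of SETDB1, with Prdm16, Chaf1b and Cbx7. Atf7ip was higher in cKO in DP-like, agonist-like, egress-gene and Treg-like cells (121 and 273 CPM in Treg-like cells, 2.26 times, 1.88 to 2.73), and Resf1 in the last 3 (182 and 978 in Treg-like cells, 5.39 times, 4.71 to 6.19). Prdm16, also an H3K9 methyltransferase gene, was lower in cKO DN3-like G2/M cells (9.91 and 2.66 CPM, 0.27 times, 0.12 to 0.55) and Cd8-positive G2/M cells (6.93 and 2.85, 0.41 times). Chaf1b was higher in egress-gene cells on 7 and 14 UMIs, with an interval that includes 1 (0.71 to 5.47), and in Treg-like cells (9 and 22 UMIs, 2.49 times, 1.10 to 6.15). Cbx7, a Polycomb chromobox gene, was higher in cKO agonist-like cells on 7 and 15 UMIs (interval 0.78 to 5.85) and lower in Treg-like cells (42.0 and 21.4 CPM, 0.51 times, 0.32 to 0.81). Setdb1 passed in 1 class, lower in cKO egress-gene cells on 14 and 9 UMIs, at 0.60 times, where the interval (0.23 to 1.49) also includes 1.

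The members' profiles were set against those of 9127 genes over the 12 classes, and up to 3 genes with the highest lower value of the WT and cKO correlations are named. For Suv39h1 they were Srsf2, a splicing factor (0.964 in WT, 0.956 in cKO), Blm, a DNA helicase (0.972, 0.95), and Lmnb1 (0.943, 0.981). For Cbx5 they were Dtymk, which makes thymidine diphosphate (0.984, 0.981), Saal1 (0.984, 0.972) and Naa40 (0.980, 0.969). For Cbx3 they were Rbm3, Elof1 and Rbbp4, a subunit of CAF-1 and other histone-binding complexes (0.986, 0.971), and for Cbx1 Anapc5, a subunit of the anaphase-promoting complex (0.976, 0.985), and Txn1 (0.974, 0.982). Suv39h2 was most like 2810004N23Rik, Eprs and Larp7 (0.954, 0.927). Values were lower for Ehmt1, with Polr3a (0.767, 0.798), Zfp687 and Snx19, and for Ehmt2, with Iws1 (0.787, 0.817), Papola and Eri2. Among the members, Cbx1 and Cbx5 had r of 0.955 and 0.932, Suv39h1 and Cbx3 0.917 and 0.943, and Ehmt1 and Ehmt2, whose products form a dimer, 0.247 and 0.066. These correlations describe 12 classes that share libraries, depth and the split by cycling state.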

How the data were processed

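RNA of thymocytes was counted in 1 WT and 1 cKO library. The deposited counts are raw UMI counts per gene and barcode, which the authors made with Cell Ranger 6.1.1, per the file headers; CASAVA 1.8 and Seurat 4.0.3 are named in the submitters' processing notes. The sources used here do not give the genome build. The 7 genes and the lists were chosen with earlier results of these data known.

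Cells needed 500 genes, 1000 UMIs and a mitochondrial share of 10% or less. Doublets were scored with scrublet in scanpy 1.11.5 (Python 3.11.15) at an expected rate of 0.06; the automatic threshold, 0.29 in WT, called 1 of 7501 barcodes in cKO at 0.638, so 0.29 served both and removed 148 and 129.

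Gates, on raw UMIs per cell in this order, were B-like (at least 2 B cell genes), Treg-like (Foxp3, no Rag1 or Rag2), agonist-like (at least 3 of 6 signalling genes with Trac, no Rag), egress-gene (at least 2 UMIs of Ccr7, S1pr1 and Klf2 with Trac, no Rag), early DN-like (at least 2 of Kit and Cpa3, no Cd4 or Cd8), DN3-like (at least 2 of Ptcra, no Cd4 or Cd8) and Cd8-positive (at least 2 of Cd8a and Cd8b1; DP-like if also resting with Rag). G2/M cells had at least 15 UMIs of the G2/M genes per 10000, S cells at least 15 of the S genes, and resting cells under 8 and 4.

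UMIs were summed per class and scaled to CPM. Intervals are exact Poisson, exact binomial (ratios) and Clopper-Pearson (shares) at 95%. Genes with at least 20 UMIs in both classes together were counted. Named list genes were those past the threshold in the same direction in both libraries (cycling) or in at least 2 classes (cKO over WT), with Setdb1 and Setdb2; of the first kind the text describes those past it in G2/M in all 6 comparisons. That narrowing was chosen after the values were seen. For likeness the rule names 3 genes per member; 1 of them is not reported here. The fold code was tested on simulated data. Of 17 alternatives, 2 were added after the data were seen.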

Additional observations from a re-analysis of the deposited data

Results flagged for a closer look

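Of the kept cells 1505 in WT and 1594 in cKO passed no stage gate, and none of the comparisons used them. G2/M cells (320 in WT, 263 in cKO) were set against resting cells (612 and 765) there. Suv39h1, Cbx1, Cbx3 and Cbx5 were higher in G2/M in both libraries with intervals that exclude 1, and Suv39h2 in cKO only. The share of all genes with such intervals was not counted. The median WT cell had 5781 UMIs at rest and 33427.5 in G2/M, and the part of depth was not tested. Cbx5 was 3.04 times higher in G2/M in WT (2.64 to 3.5) and 3.09 times in cKO (2.70 to 3.55). Suv39h1 was 2.29 times (1.801 to 2.95) and 2.36 times (1.87 to 3.01) higher, and Cbx3 2.09 times (1.95 to 2.24) and 1.96 times (1.84 to 2.09). Cbx1 was 1.43 times (1.33 to 1.55) and 1.65 times (1.53 to 1.79) higher. Suv39h2 was 2.53 times higher in cKO (1.71 to 3.85), and its WT interval, 0.967 to 2.06, included 1. Ehmt1 and Ehmt2 had G2/M ratios between 0.85 and 1.06. The lowest was that of Ehmt1 in WT, with an interval below 1 (0.73 to 0.994). Its cKO interval (0.772 to 1.07) and those of Ehmt2 in both libraries included 1. No group of 4 or more samples exists, so no sample could be set against the others of its group.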

How the results depend on the processing

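Under 17 alternatives no called difference turned its direction. The pseudocounts of 1 and 20, no filter on low counts and at least 100 UMIs cannot turn a direction by design. The level of Suv39h1, Cbx3 and Cbx5 was higher in cycling cells in all 12 comparisons under each alternative. Suv39h2 was higher in 11 of 12 with gates after thinning and with Ptcra at least 4 UMIs. Cbx1 was higher in 11 of 12 with gates after thinning, cycle thresholds halved and the mean over cells. The 5 genes with their highest level in an S or G2/M class were 5 under each of the 12 alternatives that bear on levels. The 16 comparisons 2-fold higher in cycling cells became 10 with Mki67 and Top2a alone, where 1 cycling class stands for S and G2/M and counts in both, and 28 relative to the median gene. The 11 lower than in DP-like cells became 3 relative to the median gene and 6 with a pseudocount of 20. The 1 member comparison lower in cKO (Suv39h1 in Treg-like cells) became 4 with the stricter cell filter, 2 with gates after thinning to 2000 UMIs, 3 with cycle thresholds halved, 0 with them doubled, 2 with Mki67 and Top2a alone, 2 with the mean over cells, 3 with a pseudocount of 1, and 0 with a pseudocount of 20 or at least 100 UMIs. The 0 higher in cKO became 1 with thinning and 1 with the mean over cells. The 1 Polycomb gene lower in all G2/M comparisons became 0 with the stricter and looser cell filters, thinning, cycle thresholds halved and doubled, Mki67 and Top2a alone, the mean over cells, centring on the median gene and a pseudocount of 20. The 1 demethylase became 2 with a pseudocount of 1 and 0 with thinning, a pseudocount of 20 or at least 100 UMIs. The cause was not tested. No paired analysis was possible because there is 1 library per genotype. Depth limits the agonist-like, egress-gene and Treg-like classes, where Suv39h1 and Suv39h2 had 2 to 22 UMIs.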

Other observations

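B-like cells, which were too few to be a class, numbered 42 in WT and 18 in cKO over all cycling states. Cbx5 was at 103 CPM (75.2 to 137) in WT and 69.2 (35.7 to 121) in cKO, and Cbx3 at 324 and 190. Suv39h1 was at 42.4 (25.5 to 66.2) in WT on 19 UMIs and 11.5 (1.40 to 41.6) in cKO on 2 UMIs. Suv39h2 had 8 UMIs in WT and 0 in cKO, where 0 UMIs allow up to 21.3 CPM by the Poisson interval. Of the 42 WT cells 10 were in G2/M, and 0 of the 18 cKO cells.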
